A study of Mus musculus with 6 samples.

Results

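Mitochondrial DNA is transcribed, copied and kept by a small set of proteins that are encoded in the nucleus, and 10 of their genes were followed here in mouse osteoblasts given metformin. The 10 genes were chosen by name for their role: Tfam, Polrmt, Tfb2m and Tefm for transcription, Polg, Twnk and Ssbp1 for replication, Lrpprc and Slirp for the stability of mitochondrial transcripts, and Ppargc1a as the coactivator that drives mitochondrial biogenesis. All 10 were in the table of 54532 genes, and 8 of them were among the 12681 genes expressed highly enough to be tested. After metformin, Twnk, the helicase that unwinds mitochondrial DNA, fell by 36.7%, and Tfb2m, a transcription initiation factor, fell by 29.3%. The other 6 tested genes did not pass the test. Their means changed by -30.2% (Tefm), -25.1% (Polrmt), -14.3% (Ssbp1), -13.1% (Tfam), 3.25% (Polg) and 3.65% (Lrpprc). Slirp and Ppargc1a had too few reads to be tested.

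The cells were MC3T3-E1, an established pre-osteoblast line derived from mouse calvaria. All samples were kept in osteogenic medium, which contains β-glycerophosphate, ascorbic acid and dexamethasone. The control group had this medium alone (3 samples), and the metformin group received metformin at 0.2 mM in the same medium (3 samples), in each case for 3 days. The sample labels give neither dose nor duration, which are those of the study's methods. The labels call the samples replicates of 1 cell line, so the p-values measure the spread between these samples.

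RNA was sequenced in bulk, and the values are FPKM, the reads of a gene scaled to its length and to a size per library. The 6 libraries held 18399861 to 22111790 recovered reads. Control replicate 1 stood apart from the other controls: its log2 values correlated with theirs at r = 0.9639 and 0.9701, whereas control replicates 2 and 3 correlated at 0.9927 and the metformin samples at 0.9957 to 0.9961. Its deviation from the other controls followed the GC content of the transcripts (Spearman rho = -0.668 across genes, which are not independent replicates). The labelled osteoblasts expressed Runx2, Sp7, Col1a1, Spp1 and Dmp1 in every sample, whereas Alpl (2.44 to 3.84 FPKM) and Bglap (2.22 to 12.3) were low. The summed FPKM over the 11 markers was 11490 to 13502 in controls and 8172 to 8671 with metformin. Within this sum, mean Spp1 went from 7703 to 2704 FPKM and mean Col1a1 from 1339 to 2487. Of the 11 markers, Col1a1 and Col1a2 were called higher, and Ibsp, Spp1 and Dmp1 lower. Among markers of other cell types, the muscle factors Myod1, Myog, Myf5 and Pax7 and the osteoclast gene Acp5 were at 0 in every sample. The remaining muscle markers were Acta1, with 0 to 13 reads per sample, and Des, at 1.2, 1.87 and 1.6 FPKM in controls and 2.38, 2.07 and 2.38 with metformin, higher in every metformin sample without a call (1 of 1 tested higher at an unadjusted p under 0.05). No adipocyte or chondrocyte marker was called by limma (0 also at an unadjusted p under 0.05 and by voom), with 2 of 5 and 3 of 5 tested. The tested ones were present in every sample: Cebpa at 4.67 to 10.1 FPKM, Fabp4 at 1.65 to 2.95, Sox9 at 19.9 to 28.1, Col2a1 at 6.44 to 11.9 and Comp at 0.727 to 1.63. The other markers of these 2 lists had 0 to 13 reads per sample. A missing call does not say whether such cells were present. In the haematopoietic and osteoclast list, Ctsk (259 ± 14.8 to 155 ± 6.5 FPKM, SD, n = 3) and Cd68 (2.04 ± 0.0955 to 1.17 ± 0.119) were called lower, whereas Ptprc, Adgre1 and Csf1r had 0 to 8 reads per sample.

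As background, the circular mitochondrial genome encodes subunits of the respiratory chain together with the rRNAs and tRNAs needed to make them. POLRMT is the RNA polymerase of the organelle, TFAM bends and packages the DNA at the promoters, and TFB2M melts the promoter so that POLRMT can start. TEFM then keeps the polymerase on the template. At the replication fork, the TWINKLE helicase, encoded by Twnk, unwinds the DNA, SSBP1 coats the single strand, and POLG copies it together with its accessory subunit POLG2. Transcripts are held and stabilised by the LRPPRC and SLIRP complex. PGC-1α, encoded by Ppargc1a, acts with the nuclear respiratory factors NRF1 and GABP on the promoters of many of these genes.

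Because GABP belongs to the ETS family and binds CCGGAAG, and NRF1 binds a palindrome that includes GCGCATGC, these letters were searched for on both strands in the 250 bases before the transcription start of each gene. The windows came from RefSeq on GRCm38.p6, and a window was matched to all 10 genes. For Twnk only a window at its listed start was kept, a rule used for no other gene. In the share of tested genes, a gene counted if any of its windows had the letters. The ETS letters were present in 7 of the 10 windows, compared with 6.91% of all 32851 windows and 16.6% of the 8967 tested genes that had one. The genes with the ETS letters were Tfam, Polrmt, Tefm, Polg, Twnk, Ssbp1 and Slirp. The NRF1 letters were found in 1 window, that of Polrmt, compared with 2.26% of all windows and 5.44% of the tested genes. The letters TGACGTCA of the cyclic AMP response element were in 0 of the 10 windows (1.55% of all, 3.11% of tested genes), and the E-box letters CACGTG were also in 0 (6.02% of all, 10.1% of tested genes). None of the 4 motifs overlapped another in these windows, and a match is only a description of the letters.

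The genes called lower, Twnk and Tfb2m, differ in these letters, so the 150 bases before their start are shown. Those of Tfam and Polrmt, 2 transcription genes with lower means that did not pass the test, are also shown. Each runs 5′ to 3′ on the strand of the gene, and capitals mark the ETS letters (CCGGAAG, or CTTCCGG where the match is on the other strand) and the NRF1 letters. The windows are chr19:45006408-45006557 on the plus strand for Twnk, chr1:179546277-179546426 on the minus strand for Tfb2m, chr10:71238045-71238194 on the minus strand for Tfam, and chr10:79746582-79746731 on the minus strand for Polrmt.
Twnk: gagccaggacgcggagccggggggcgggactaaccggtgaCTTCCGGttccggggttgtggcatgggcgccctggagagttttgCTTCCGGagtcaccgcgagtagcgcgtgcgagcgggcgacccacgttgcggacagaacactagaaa
Tfb2m: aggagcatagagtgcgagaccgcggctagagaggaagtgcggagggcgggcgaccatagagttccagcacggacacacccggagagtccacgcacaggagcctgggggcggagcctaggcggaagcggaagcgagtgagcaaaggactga
Tfam: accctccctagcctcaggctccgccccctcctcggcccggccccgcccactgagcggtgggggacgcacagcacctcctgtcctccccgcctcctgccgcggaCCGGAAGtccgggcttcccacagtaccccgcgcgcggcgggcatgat
Polrmt: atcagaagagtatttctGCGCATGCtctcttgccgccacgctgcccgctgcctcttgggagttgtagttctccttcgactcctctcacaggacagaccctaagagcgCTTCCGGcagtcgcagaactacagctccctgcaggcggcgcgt

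Twnk carried the ETS letters at 110 to 104 and at 66 to 60 bases before its start, both on the other strand. Tfb2m had no exact match to the 4 motifs, so of the genes called lower Twnk carried the exact ETS letters and Tfb2m did not. Near matches were not sought. Tfam carried them at 47 to 41, and Polrmt at 43 to 37, with its NRF1 letters at 133 to 126. In the remaining genes the ETS letters lay at 9 to 3 bases before the start for Tefm, 38 to 32 for Polg, and 47 to 41 for Ssbp1, and Slirp had them 3 times (146 to 140, 48 to 42 and 11 to 5). For Tfam, Tefm, Polg and Ssbp1 the RefSeq start lies downstream of the start of the gene as listed. Their ETS letters therefore fall inside the listed gene. Lrpprc and Ppargc1a had no match, which says only that these letters are not in this window.

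**Figure D1:**
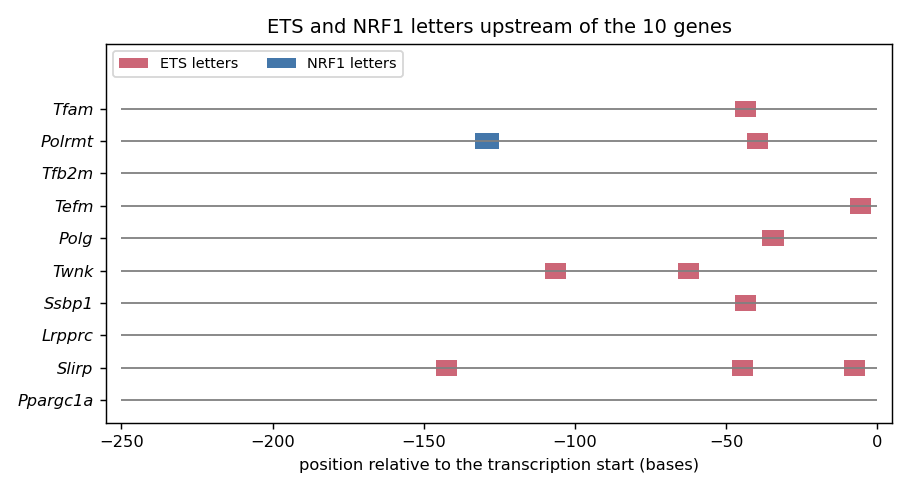
Positions of the ETS letters (red) and NRF1 letters (blue) in the 250 bases before the RefSeq transcription start of the 10 genes, with the distance from the start in bases on the x axis. The ETS letters are in 7 of the 10 windows, the NRF1 letters in that of Polrmt, and Tfb2m, Lrpprc and Ppargc1a have neither.

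The comparison of metformin with osteogenic medium alone asked whether these genes changed while the cells differentiated under the drug. Of the 8 genes tested, 2 were called lower and 0 higher by limma at an adjusted p of 0.05, where 9.28% of all tested genes were called lower and 13.2% higher. At an unadjusted p under 0.05, 4 were lower and 0 higher. The share of all tested genes at that cut was not counted, so this count and those of the other lists have no background. Voom on the recovered reads also called 2 lower and 0 higher, where over the whole table it called 1237 lower and 1776 higher. The median log2 fold change of the 8 genes was -0.27, and that of all tested genes was 0.0053. In 4 of the 8 genes every metformin sample lay below every control (20.5% of all tested genes), and in 0 did every metformin sample lie above (23.6%). Log2 fold changes are on the log2(FPKM + 1) scale, which understates the change of low genes, and adjusted p-values are from limma with Benjamini-Hochberg adjustment over all 12681 genes. In bulk RNA, fewer cells of a type and less RNA per cell cannot be told apart.

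**Figure D2:**
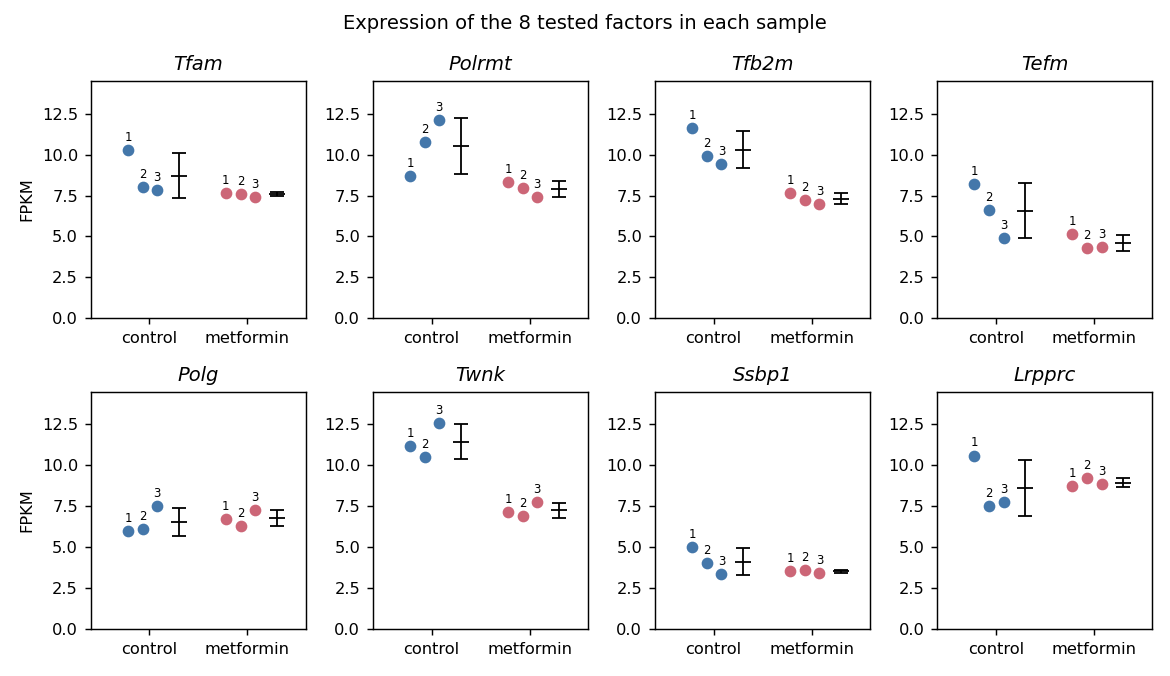
FPKM of the 8 tested genes in each sample (y axis), with controls in blue and metformin in red, numbers giving the replicate, and bars the mean and SD of 3 samples. Twnk and Tfb2m in metformin lie below all controls, and control replicate 1 is the highest control for Tfam, Tfb2m, Tefm, Ssbp1 and Lrpprc and the lowest for Polrmt and Polg.

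Among the transcription genes, Tfam (ENSMUSG00000003923, chr10:71225464-71238280, minus strand) was at 10.3, 8.02 and 7.82 FPKM in controls and 7.65, 7.62 and 7.43 with metformin. The metformin samples all lay below the controls, but the gap to the lowest control was small, and control replicate 1 was the highest of all samples. The mean went from 8.71 ± 1.37 to 7.57 ± 0.123 FPKM (SD, n = 3), a log2 fold change of -0.17 (SE 0.11, 95% confidence interval -0.44 to 0.097, limma adjusted p = 0.323). The difference did not pass the test.

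Polrmt (ENSMUSG00000020329, chr10:79736123-79746581, minus strand), the polymerase itself, was at 8.69, 10.8 and 12.1 FPKM in controls and 8.35, 7.95 and 7.4 with metformin. Again the groups did not overlap, and here control replicate 1 was the lowest control, close to the metformin samples. Its mean was 10.5 ± 1.74 FPKM in controls and 7.9 ± 0.478 with metformin, a log2 fold change of -0.37 (SE 0.13, 95% confidence interval -0.67 to -0.064, limma adjusted p = 0.0849). Without control replicate 1, Polrmt was called lower, with a log2 fold change of -0.49 (limma adjusted p = 0.00345).

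Tfb2m (ENSMUSG00000026492, chr1:179528055-179546267, minus strand), which opens the promoter, was at 11.6, 9.91 and 9.43 FPKM in controls and 7.66, 7.22 and 7.01 with metformin. Every metformin sample was below every control. The mean fell from 10.3 ± 1.14 to 7.3 ± 0.329 FPKM (log2 fold change -0.44, SE 0.097, 95% confidence interval -0.68 to -0.21, limma adjusted p = 0.0199). The call was kept without control replicate 1 (log2 fold change -0.36, limma adjusted p = 0.00502) and without control replicate 3, and was lost without control replicate 2 or any 1 of the metformin samples, with adjusted p up to 0.092. A pseudogene, Gm1818, matches Tfb2m over 1187 bases at 99.33% identity, so reads could be split between them. Gm1818 was at 4.39, 4.11 and 3.78 FPKM in controls and 4.64, 2.25 and 3.21 with metformin, and its groups overlapped.

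Tefm (ENSMUSG00000046909, chr11:80136678-80142175, minus strand), the elongation factor, was at 8.23, 6.62 and 4.89 FPKM in controls and 5.14, 4.3 and 4.35 with metformin. The third control lay within the range of the metformin samples, so the groups overlapped. Its mean was 6.58 ± 1.67 in controls and 4.59 ± 0.47 with metformin, with a log2 fold change of -0.42 (SE 0.17, 95% confidence interval -0.82 to -0.014, limma adjusted p = 0.129). Tefm was the least covered of the tested genes, at 133 to 236 reads per sample. Without control replicate 3 it was called lower.

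In the replication group, Twnk (ENSMUSG00000025209, chr19:45006558-45012762, plus strand) was at 11.2, 10.5 and 12.6 FPKM in controls and 7.12, 6.88 and 7.73 with metformin. The groups were well separated, and control replicate 1 was the middle control. The mean fell from 11.5 ± 1.04 to 7.24 ± 0.435 FPKM (log2 fold change -0.59, SE 0.094, 95% confidence interval -0.82 to -0.37, limma adjusted p = 0.00574). This call held in all 6 fits that left out 1 sample and in all 9 other alternatives, with log2 fold changes of -0.69 to -0.53 and adjusted p of 0.00204 to 0.0394. In the GENCODE M21 annotation, Twnk shares 507 exonic bases (12.6% of 4013) with Mrpl43, a mitochondrial ribosomal protein gene on the opposite strand. The listed length of Twnk is shorter, at 3488 bases, so how many shared bases were in the counted gene is not known. Mrpl43 was at 55.6, 58.7 and 58 FPKM in controls and 49.9, 51 and 48.5 with metformin (log2 fold change -0.20, limma adjusted p = 0.112), and the part of shared reads in the Twnk result was not tested.

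Polg (ENSMUSG00000039176, chr7:79446231-79466362, minus strand), the catalytic subunit of the DNA polymerase, was at 6.01, 6.11 and 7.52 FPKM in controls and 6.73, 6.28 and 7.28 with metformin. The groups overlapped throughout. Its mean was 6.55 ± 0.844 in controls and 6.76 ± 0.502 with metformin, a log2 fold change of 0.044 (95% confidence interval -0.21 to 0.30, limma adjusted p = 0.807) that was -0.052 when libraries were scaled by nuclear reads. Polg shares 921 exonic bases (8.57%) with Fanci, a DNA repair gene on the opposite strand, which was called higher, from 0.354 ± 0.0863 to 2.41 ± 0.0477 FPKM. How overlapping reads were counted is not given in the sources used here, and their part in the Polg value was not tested.

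Polg2, the accessory subunit of the same polymerase, was called lower, at 1.46, 1.58 and 1.67 FPKM in controls and 0.902, 0.895 and 0.625 with metformin (log2 fold change -0.51, limma adjusted p = 0.0159). The ratio of Polg to Polg2 within each sample was 4.12, 3.88 and 4.5 in controls and 7.46, 7.01 and 11.7 with metformin. All metformin ratios were above all control ratios. Polg2 had 116, 144 and 143 reads in controls and 78, 85 and 53 with metformin, so the ratio of 11.7 rests on the fewest Polg2 reads. The mean log2 ratio went from 2.06 ± 0.11 to 3.08 ± 0.40 (SD, n = 3), a difference of 1.03, with an exact two-sided permutation p = 0.1, the smallest that 3 against 3 can give. The Polg2 call was lost without control replicate 2 or any 1 metformin sample.

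Ssbp1 (ENSMUSG00000029911, chr6:40471352-40484700, plus strand), the single-strand binding protein, was at 4.98, 4 and 3.34 FPKM in controls and 3.56, 3.59 and 3.41 with metformin. Its metformin samples all lay inside the range of the controls. The log2 fold change was -0.16 (SE 0.13, 95% confidence interval -0.47 to 0.14, limma adjusted p = 0.399). A pseudogene, Gm12115, matches it over 447 bases at 97.76% identity and had 4 to 22 reads per sample, against 549 to 760 for Ssbp1.

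Of the pair that stabilises mitochondrial transcripts, Lrpprc (ENSMUSG00000024120, chr17:84705247-84790789, minus strand) was at 10.6, 7.53 and 7.78 FPKM in controls and 8.72, 9.23 and 8.87 with metformin. Control replicate 1 was above, and both other controls below, every metformin sample. The log2 fold change was 0.06 (SE 0.13, 95% confidence interval -0.25 to 0.37, limma adjusted p = 0.78), was -0.039 with scaling by nuclear reads and -0.016 with a GC correction, and without control replicate 1 Lrpprc was called higher (0.20, limma adjusted p = 0.0323). Leaving out control replicate 2 instead gave -0.02, so its direction rested on which control was kept.

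Slirp (ENSMUSG00000021040, chr12:87443896-87452206, plus strand), the partner of Lrpprc, had 4, 6 and 6 reads in controls and 0, 1 and 5 with metformin. These are 0.0706, 0.0922 and 0.0983 FPKM against 0, 0.0148 and 0.0827. Of its exonic bases, 97.8% are shared with genes on the opposite strand, Snw1 (2914 bases) and Alkbh1 (122 bases), which had 603 to 821 and 267 to 387 reads per sample. With so few reads in so little unshared sequence, no level or change of Slirp can be read from this table.

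Ppargc1a (ENSMUSG00000029167, chr5:51454250-51567726, minus strand), the biogenesis coactivator, had 1, 6 and 6 reads in controls and 5, 3 and 1 with metformin. In FPKM it was at 0.00831, 0.0434 and 0.0463 against 0.0382, 0.0209 and 0.00779. The groups overlapped, and at this depth a difference was not detectable. Its relative Ppargc1b was also low, at 0.398 to 0.956 FPKM in controls and 0.373 to 0.702 with metformin, whereas the related Pprc1 was at 8.45 to 11.5 and 9.45 to 10.3.

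Set in order of their control level (FPKM, per kilobase of the listed gene length), the genes were Twnk at 11.5, Polrmt at 10.5, Tfb2m at 10.3, Tfam at 8.71, Lrpprc at 8.63, Tefm at 6.58, Polg at 6.55 and Ssbp1 at 4.11. Each neighbour from Twnk down to Polg overlapped the next in range, so the order of neighbours is not resolved, although the lowest Twnk control (10.5) was above the highest of Tfam (10.3), Tefm (8.23) and Polg (7.52). Ssbp1 lay below Polg without overlap, and Ppargc1a was at 0.0327. Slirp was listed at 0.087, but its level is not ranked here because nearly all of its exons are shared. The order depends on length: the listed length equals the merged exons for these genes except Twnk, where it is that of the longest coding transcript, and for Lrpprc it was 8504 bases against 4393 for its longest coding transcript, for Ssbp1 8360 against 4398. Per kilobase of the longest coding transcript, Lrpprc came first at 16.7, followed by Polrmt at 13.2, Tfb2m at 11.8 and Twnk at 11.5, with Ssbp1 at 7.81.

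Control replicate 1 was the outermost control for 7 of the 8 genes, and its position moved with the GC content of the genes. It was the highest control for the 5 tested genes with the lowest GC content, at 1.36 times the mean of the other controls for Ssbp1 (41.0% GC), 1.2 for Tfb2m (42.5%), 1.3 for Tfam (44.9%), 1.43 for Tefm (45.0%) and 1.38 for Lrpprc (47.1%). For Polg (52.7%) and Polrmt (60.5%) it was the lowest, at 0.882 and 0.757 times, and for Twnk (53.2%) it was at 0.971. With a GC correction of the values, 5 of the 8 genes were called lower: Twnk, Polrmt, Tfb2m, Tfam and Tefm, that is all 4 transcription genes and the helicase. Their log2 fold changes were then -0.63, -0.46, -0.47, -0.23 and -0.48. The correction also moved the table as a whole downwards (median shift -0.0542), and the part of this shift in these calls was not tested. Without control replicate 1, Twnk, Polrmt and Tfb2m were lower and Lrpprc higher, and Tfam was at -0.058 (limma adjusted p = 0.431). Tfam was therefore called under the GC correction and not without the sample. Over the whole table, the GC correction raised the number of genes called from 2847 to 4495, of which 2433 were lower, and leaving out control replicate 1 raised it to 5559, of which 2590 were lower.

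**Figure D3:**
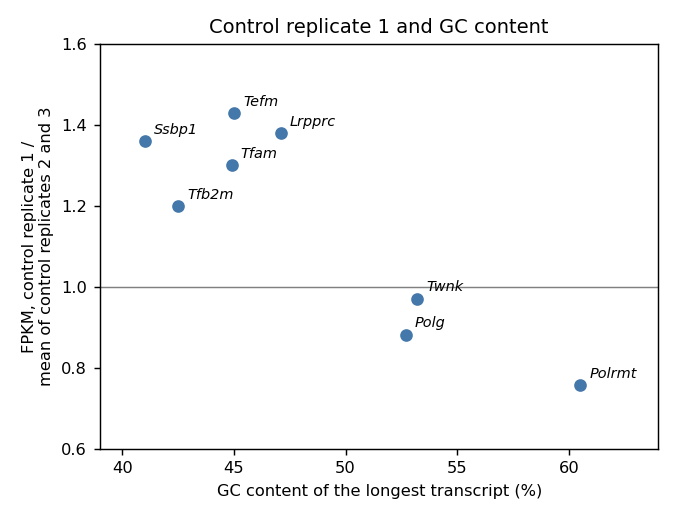
Ratio of control replicate 1 to the mean of control replicates 2 and 3 (y axis) against the GC content of the longest transcript in percent (x axis) for the 8 tested genes. The 5 genes with 41.0% to 47.1% GC lie above 1, and Polg, Twnk and Polrmt, with 52.7% to 60.5%, lie below.

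**Figure D4:**
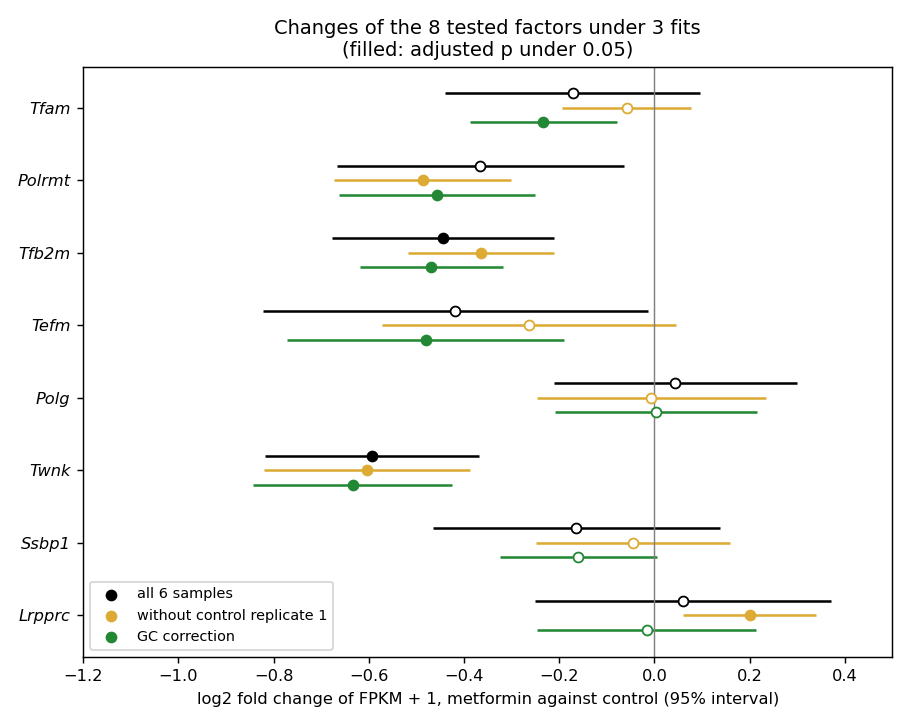
Log2 fold change of metformin against control for the 8 tested genes (x axis, log2(FPKM + 1) scale), in black with its 95% confidence interval, in yellow without control replicate 1 and in green with a GC correction (filled points have an adjusted p under 0.05). Tfam, Polrmt, Tfb2m, Tefm, Twnk and Ssbp1 lie below 0 in all 3, Twnk and Tfb2m are called in all 3, and Tfam moves from -0.23 with the correction to -0.058 without the sample.

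The other genes of these pathways are described by counts. Of 17 other genes of mitochondrial DNA replication, repair and nucleotide supply, 1 was called higher and 3 lower, with a median log2 fold change of 0.011. Dna2, a nuclease and helicase that also works in the nucleus, was higher (0.461 ± 0.045 to 2.26 ± 0.228 FPKM, log2 fold change 1.15). Polg2, Dguok, a deoxynucleoside kinase (4.76 ± 0.521 to 3.43 ± 0.0517), and Mgme1, an exonuclease (5.92 ± 0.482 to 4.41 ± 0.36), were lower. The Dna2 call held when any 1 sample was left out, whereas of those 6 fits, the calls of Dguok and Mgme1 held only in the one without control replicate 1.

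Of 7 other transcription genes, 0 were higher and 2 lower (median -0.21), with 0 higher and 3 lower at an unadjusted p under 0.05 and the same counts as limma by voom. Mterf1b went from 1.47 ± 0.186 to 0.713 ± 0.244 FPKM and Mterf4, which acts with an rRNA methyltransferase, from 2.45 ± 0.178 to 1.75 ± 0.116. Mterf1b rests on 14 to 42 reads per sample, which counting could split with its near-identical paralog Mterf1a, and its call was lost without control replicate 2 or 3 or metformin replicate 2 or 3. Of the 6 fits without 1 sample, the Mterf4 call held only in the one without control replicate 1. Tfb1m, the paralog of Tfb2m that methylates rRNA, was at 2, 1.8 and 1.38 FPKM in controls and 2.39, 2.06 and 1.65 with metformin, and its groups overlapped. Of 20 genes of mitochondrial RNA processing and decay, limma called 0 (1 higher and 2 lower at an unadjusted p under 0.05), and voom called 1 lower.

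The nuclear regulators of biogenesis gave 1 higher and 1 lower of 11 tested. Hcfc1 rose from 14.4 ± 2.79 to 21.4 ± 0.821 FPKM and Sirt1, the deacetylase that acts on PGC-1α, fell from 6.68 ± 1.31 to 4.44 ± 0.163, and both calls were lost without control replicate 2 or any 1 metformin sample. Nrf1 was at 3.22, 3.24 and 3.4 FPKM in controls and 3.28, 3.87 and 3.01 with metformin. Gabpa, the ETS subunit of GABP, was at 11, 11 and 10 against 12.5, 12.2 and 12.1, higher in 3 of 3 metformin samples without a call. Of 17 nuclear genes of mitochondrial import, chaperones and content, limma called 1 higher, the citrate synthase gene Cs (47.7 ± 2.58 to 66.5 ± 2.01 FPKM), and 0 lower (0 lower also at an unadjusted p under 0.05 and by voom, which called 3 higher). With the GC correction 2 were called higher and 2 lower, and without control replicate 1, 5 higher and 3 lower. The Cs call was lost without metformin replicate 1 or 2.

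The transcripts that the 10 genes serve, the 13 mRNAs of the mitochondrial genome, were measured in the same samples. They made up 9.66%, 8.17% and 6.21% of reads in controls and 2.61%, 2.69% and 3.02% with metformin. Of the 13, 11 were called lower and 0 higher by limma and also by voom (12 lower and 0 higher at an unadjusted p under 0.05), with a median log2 fold change of -1.61, against -0.27 for the 8 nuclear genes. Among those with the largest changes, mt-Co2 fell from 240 ± 49.7 to 46 ± 5.98 FPKM, a call that held in all 6 fits without 1 sample. mt-Nd4l went from 148 ± 137 to 17.5 ± 4.98, a call lost without control replicate 3 or any 1 metformin sample, and mt-Atp6 from 208 ± 144 to 32.7 ± 8.96, lost without metformin replicate 1 or 2. Control replicate 1 was far from the other controls for mt-Co3, at 2442 against 98.2 and 181 FPKM.

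Markers of dividing cells also moved with the groups. All 13 were called higher and 0 lower (0 lower also at an unadjusted p under 0.05 and by voom), with a median log2 fold change of 2.06 and a summed FPKM of 106 to 142 in controls and 430 to 445 with metformin. Mki67, for example, went from 4.59 ± 0.745 to 29.5 ± 2.39 FPKM. The part of cell division, of the mitochondrial transcripts and of the lower Ibsp, Spp1 and Dmp1 in the fall of Twnk and Tfb2m was not tested.

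**Figure D5:**
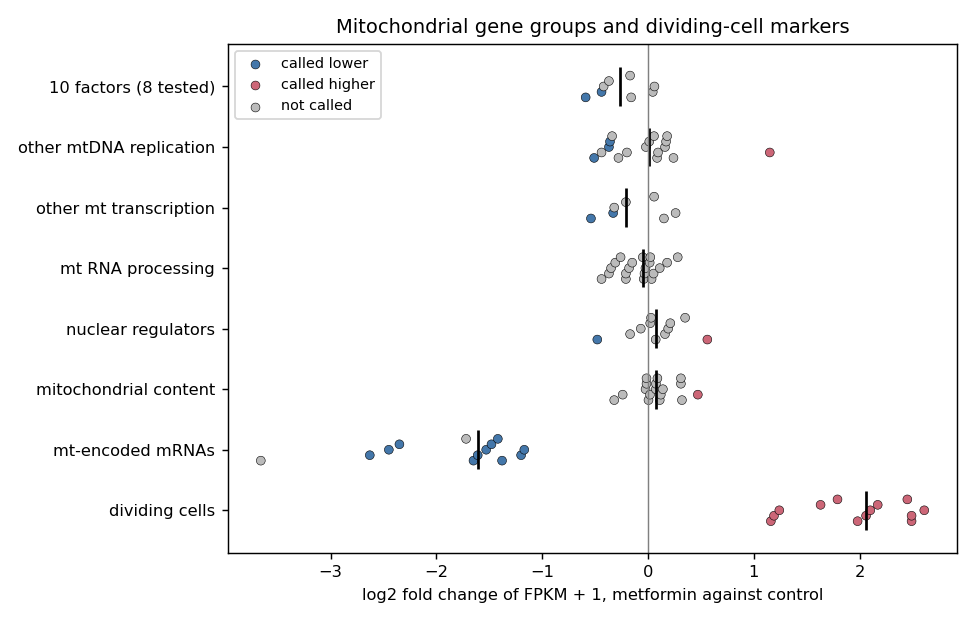
Log2 fold changes of metformin against control (x axis, log2(FPKM + 1) scale) for the 8 tested genes and 7 other lists, with 1 point per gene, blue for called lower, red for called higher, grey for not called, and a bar at the median. The medians run from -1.61 for the mitochondrial mRNAs and -0.27 for the 8 genes to 2.06 for the markers of dividing cells.

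In the GENCODE M21 annotation, some of the 10 genes start close to a gene on the opposite strand. Tfb2m starts 103 bases from Cnst, which was at 4.43, 3.77 and 4.07 FPKM in controls and 4.61, 4.16 and 4.68 with metformin (log2 fold change 0.11, limma adjusted p = 0.431), and its groups overlapped. Twnk starts 779 bases from Mrpl43, given above. Slirp starts 121 bases from Alkbh1, a DNA and RNA demethylase gene, which was called lower (2.83 ± 0.0176 to 2.02 ± 0.0919 FPKM, limma adjusted p = 0.0224). Polg starts 47 bases from Gm10616, which had 0 to 3 reads per sample.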

How the data were processed

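RNA was extracted from 6 MC3T3-E1 samples with Trizol, and libraries were made with the Illumina TruSeq kit. The table that the authors deposited names no unit. The deposited values were made by the authors as FPKM, dividing reads by listed gene length and by a size per library. Multiplied by that length, every value above 0 is a whole number of equal steps within its sample (tolerance 0.01 reads), which gave the reads back. The size was not the recovered read total: it was 19655718 against 18792236 reads in control replicate 3 and 21790540 against 22111790 in metformin replicate 2. Scaling by total reads shifted the median log2 fold change by -0.0246. The submitters' processing notes name Bowtie 0.12.2, mm8 and mm9 without a role, the study tested with DESeq2, and the counting tool, its use of strand and the annotation are not given in the sources used here. The coordinates are those of GRCm38: of 54532 identifiers, 54409 are in GENCODE M21, 53499 with the same coordinates, and the listed length equals the merged exons for 98% of those matched. Per-sample columns of other samples numbered 0.

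Genes averaging 0.5 FPKM or more were tested with limma 3.58.1 (R 4.3.3, trend) on log2(FPKM + 1), 3 against 3, two-sided, with Benjamini-Hochberg adjustment over 12681 genes and a threshold of 0.05. On simulated data, 182 of 193 changed genes were recovered, with 0 of wrong sign and 13 false calls. Recovery in the real samples, where control replicate 1 stood apart from the other controls, was not tested. The log2 fold changes of the 8 tested genes ran from -0.59 (Twnk) to 0.06 (Lrpprc). Recovery of changes of this size was not tested separately. No 2 samples agreed within sampling noise. The correlations of same-numbered samples' deviations were near 0 or below, so no pairing by replicate number was seen. The departure of control replicate 1 enters the deviations of every control, so a weak pairing could be missed. The GC correction fitted a spline of GC content (5 degrees of freedom) per sample. Near-identical copies (95% identity over 200 bases) were sought with BLAST+ 2.17.0. All 10 genes were named with every value, and up to 4 called genes a direction from each other list. Tfb1m, Nrf1, Gabpa, Ppargc1b, Pprc1, mt-Co3 and the overlapping or copied genes were named beyond this rule, after their values were seen. The 10 genes and the lists were chosen with earlier results of these data known.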

Additional observations from a re-analysis of the deposited data

How the results depend on the processing

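Twnk kept its call under every alternative run. With the replicate block, 1 of the 10 genes was called (Twnk, with Tfb2m at a limma adjusted p of 0.0508), and 1859 genes over the whole table. No pairing by replicate number was seen: the correlations of same-numbered samples' deviations were -0.0533, 0.000265 and -0.0549. The GC correction gave 5 of the 10 genes, the replicate block with the GC correction 4, and leaving out 1 sample 1 to 4. Scaling by nuclear reads, chosen after seeing the data, gave 3 and left 41.8% of calls higher, against 58.7% as reported and 45.9% with the GC correction (4495 genes). Leaving out 1 sample gave 1433 to 5559 genes. The fold change of Polg turned to -0.052 with nuclear reads, and ranged from -0.0064 (without control replicate 1) to 0.13 (without control replicate 3) when 1 sample was left out, with -0.0037 without metformin replicate 3. That of Lrpprc turned to -0.039 with nuclear reads, -0.016 with the GC correction with or without the block, and ranged from -0.02 (without control replicate 2) to 0.20 (without control replicate 1).

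For the other lists, calls as reported against no filter on low values were 4 and 2 for replication, 2 and 0 for transcription, 2 and 0 for regulators, and 11 and 3 for mitochondrial mRNAs. With the replicate block they were 1 for replication, 1 for transcription (also with the GC correction) and 0 for regulators, and with the GC correction alone 7 for replication. RNA processing had 0, against 1 with a pseudocount of 0.1, total-read scaling or voom, 2 with at least 10 reads in every sample, 6 with the GC correction and 3 with the block added. Mitochondrial content had 1, against 3 with voom, 4 with the GC correction (2 of them lower) and 3 with the block added (2 lower). Leaving out 1 sample gave 1 to 7 for replication, 0 to 2 for transcription, 0 to 6 for RNA processing, 0 to 5 for regulators, 0 to 8 for mitochondrial content and 8 to 13 for mitochondrial mRNAs. The markers of dividing cells kept 13 throughout, and the Polg to Polg2 difference ranged from 0.8 to 1.16. The cause of these shifts was not tested. The ratio of Lrpprc to Slirp was not run, since Slirp had 0 to 6 reads. At these depths Slirp and Ppargc1a had too few reads to be tested.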

Other observations

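Over the 6 samples, the 5 tested genes whose log2 values were most like those of Twnk were Gm44623 (Pearson r = 0.9983), Snx1 (0.9977), Dcaf5 (0.9974), Snx33 (0.9965) and Rfxank (0.9963). These are descriptions over 6 samples that fall into 2 groups, with no test, and nothing is read from them about shared control. Snx1 and Snx33, sorting nexins of the endosome, were at 16.8 ± 0.62 and 16.3 ± 1.09 FPKM in controls (SD, n = 3) and 14.1 ± 0.242 and 12.2 ± 0.323 with metformin. Dcaf5, a substrate receptor of a ubiquitin ligase, went from 12.6 ± 0.884 to 9.13 ± 0.299, and Rfxank, a regulator of class II antigen presentation genes, from 5.04 ± 0.209 to 3.89 ± 0.145. Gm44623 had only 0 to 17 reads per sample.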
